A study of Homo sapiens with 6 samples.

Results

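The genes described here encode the subunits of the human proteasome and the proteins that assemble, activate or inhibit it. They were chosen by name: every entry of the deposited table whose symbol starts with PSMA, PSMB, PSMC, PSMD, PSME, PSMF or PSMG and a number, without PSMB8 and PSMB9. This gave 47 genes of 34594 entries. Each of 6 groups was hybridised to 1 Illumina bead array: the PC-3M subclone 1E8 with 100 µM ATP for 6 h, with 100 µM ATP for 12 h and without added ATP, and the PC-3M subclone 2B4 under the same conditions. The human prostate cancer line PC-3M was derived from PC-3 metastases, and its subclones 1E8 and 2B4 are known for high and low capacity to metastasise. All 6 groups were grown in RPMI medium with 10% fetal bovine serum, and each subclone stands for 1 clone. No time is labelled for either control, and each subclone's single control array was used for 6 h and for 12 h, so the effects of ATP and of hours in culture cannot be told apart.

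The proteasome is the protease complex that degrades ubiquitin-tagged proteins in the cytosol and nucleus. Its barrel-shaped core has outer rings of alpha subunits, which gate the entrance, and inner rings of beta subunits, some of which carry the cutting sites. The regulatory particle on top consists of a base, whose ATPases unfold substrates with intracellular ATP, and a lid, which removes the ubiquitin chain. Dedicated chaperones build the core and the base, and alternative caps such as the PSME activators can take the place of the regulatory particle. The ATP of the present treatment was added outside the cells, where it acts on P2 receptors.

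Between 9403 and 11239 entries were above the detection limit of their array, the most on the 1E8 control array, whose limit of 29.6 was below the 43.8 to 52.6 of the other 5 arrays. In all, 11097 entries above the limit on at least 1 array were tested. Of the markers used to check the cells, the epithelial genes KRT8, KRT18, KRT19 and EPCAM exceeded the limit on all 6 arrays and CDH1 on none. KLK2, KLK3 and TMPRSS2, genes of prostate luminal cells, were below the limit on all 6 arrays, as were the leukocyte and fibroblast genes PTPRC, CD14, COL1A1, COL3A1 and DCN. CD68 and PECAM1 were above it on all 6. These are bulk RNA measurements, in which fewer cells of a type and less RNA per cell cannot be told apart.

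Of the 47 genes, 44 were tested. 42 of these were above the limit on all 6 arrays, PSMD9 on 5 and PSMC3IP on 4. PSMA8, the alpha subunit of germ cells, and PSMB11, the beta subunit of the thymus, were below the limit on every array. So was PSMA7, an alpha subunit of the standard proteasome, which is therefore without a value here. PSMC3IP meets the naming rule but is a cofactor of meiotic recombination and no part of the proteasome. The tested genes were bright, with a median intensity of 952 over the 6 arrays, against 177 for all tested entries. Their highest and lowest array differed by a median of 0.43 on the log2 scale, against 0.55 for all tested entries, which were dimmer. This spread was not compared at equal brightness.

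**Figure D1:**
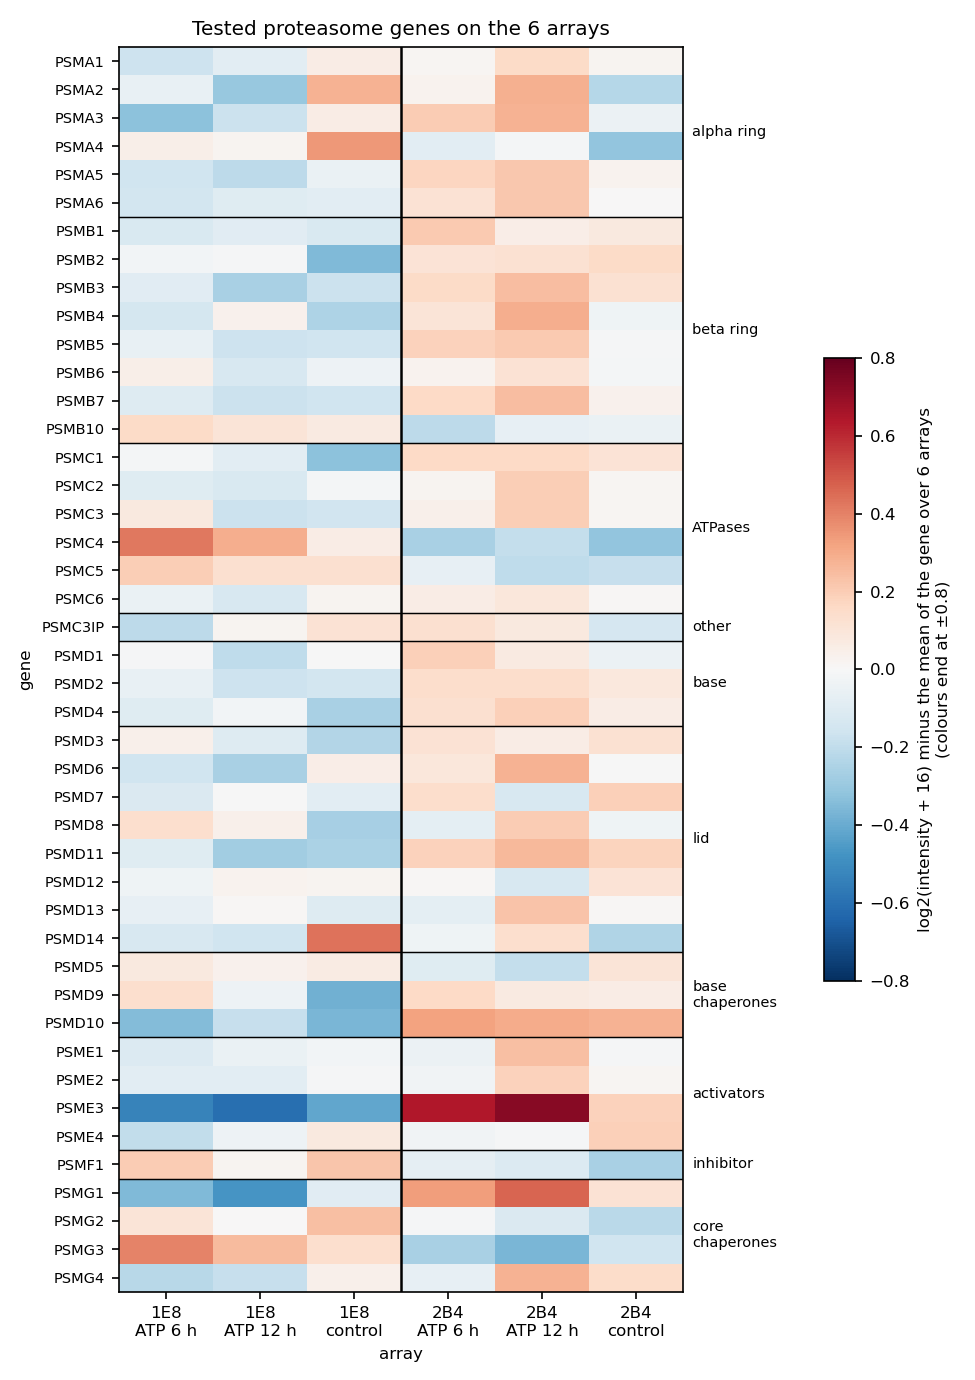
Heat map of the 44 tested genes (rows, grouped by role) on the 6 arrays (columns), coloured by log2(intensity + 16) minus the gene's mean over the arrays. The 1E8 columns are bluer than the 2B4 columns in most rows, PSME3 has the strongest contrast between subclones, and PSMD14 is high on the 1E8 control array alone.

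The first comparison asked how the subclones differ whatever the condition. Intensities were analysed as log2(intensity + 16) in a limma model that had terms for subclone and for condition and used the 6 arrays together, and differences are 1E8 minus 2B4 with their standard error. Since no group has a replicate, the error is the departure of the 6 arrays from this model. That departure may be technical or a difference between conditions that is not the same in both subclones, and these cannot be told apart. 6 of the 44 genes (13.6%) passed an adjusted p of 0.05, against 17.1% of all tested entries: PSME3, PSMG1, PSMD10 and PSMD11 were lower in 1E8, PSMC4 and PSMG3 higher. At an unadjusted p under 0.05, 4 were higher in 1E8 (17.9% of all entries) and 9 lower (15.4% of all entries).

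PSME3 differed most. It is the subunit of the nuclear proteasome activator that forms a ring of its own, separate from PSME1 and PSME2. Its intensities in 1E8 were 147 at 6 h and 139 at 12 h of ATP and 160.3 in the control, against 350.2, 373 and 251 in 2B4 under the same conditions. Every 1E8 array was thus below every 2B4 array, and the difference was -1.03 ± 0.16 (adjusted p = 0.00843). It kept an adjusted p of 0.0257 or lower with any 1 array left out. With values floored at 50, PSMD10 was the one gene of the 6 to keep its call, and with no filter on dim entries none of the 6 did (adjusted p between 0.124 and 0.378).

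Among the assembly chaperones 3 passed the test. PSMG1, which with PSMG2 builds the alpha ring, had 729 at 6 h, 671 at 12 h and 877 in the control of 1E8, against 1185, 1302 and 1018 in 2B4. PSMD10, also called gankyrin, a chaperone of the base that binds PSMC4, had 719, 808 and 711 in 1E8, against 1151, 1131 and 1120.1 in 2B4. PSMG3, which with PSMG4 also acts on the alpha ring, had 307, 276 and 254 in 1E8, against 189, 174 and 204 in 2B4. The arrays of the subclones did not overlap for any of these 3 genes, with PSMG1 and PSMD10 lower and PSMG3 higher in 1E8. Their differences were -0.61 ± 0.16 for PSMG1 (adjusted p = 0.0398), -0.60 ± 0.11 for PSMD10 (adjusted p = 0.0142) and 0.52 ± 0.12 for PSMG3 (adjusted p = 0.0294). The partners of the core chaperones were apart from them: PSMG2 had 682, 633 and 749 in 1E8, against 627, 582 and 542 in 2B4, with no overlap, and PSMG4 191, 197 and 233 in 1E8, against 215, 277 and 252 in 2B4, with overlap. Their differences of 0.23 ± 0.12 and -0.24 ± 0.12 did not pass the test. The base chaperones PSMD5 and PSMD9 overlapped between the subclones as well. PSMD5 had 139.7, 135 and 138 in 1E8, against 122, 113 and 142 in 2B4. PSMD9 had 56.5, 48.3 and 34.5 in 1E8, against 57.9, 53.5 and 52.9 in 2B4, close to the detection limits. With either 6 h array left out, PSMG1, PSMD10 and PSMG3 lost the call, at adjusted p of 0.0884, 0.0739 and 0.165. With either 12 h array left out, PSMG1 and PSMG3 lost it, at adjusted p of 0.169 and 0.133.

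PSMC4 and PSMD11 belong to the regulatory particle. PSMC4, an ATPase of the base, had 529, 483 and 408 in 1E8 at 6 h, at 12 h and in the control, against 324, 340.5 and 311 in 2B4, a difference of 0.51 ± 0.11 (adjusted p = 0.0267). PSMD11, a scaffold subunit of the lid, had 100.5, 86.7 and 88.7 in 1E8, against 125, 133 and 125 in 2B4, a difference of -0.42 ± 0.11 (adjusted p = 0.0465). Neither gene had overlapping subclones. PSMD11 stayed past the threshold in none of the 6 fits that left out 1 array (adjusted p between 0.0534 and 0.225), and PSMC4 only in the 2 without a control array (up to 0.194 over all 6). PSMC5, a further ATPase, had 2699.7, 2574 and 2568 in 1E8, against 2249, 2043 and 2071 in 2B4, and missed the threshold at 0.30 ± 0.10 (adjusted p = 0.0944).

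**Figure D2:**
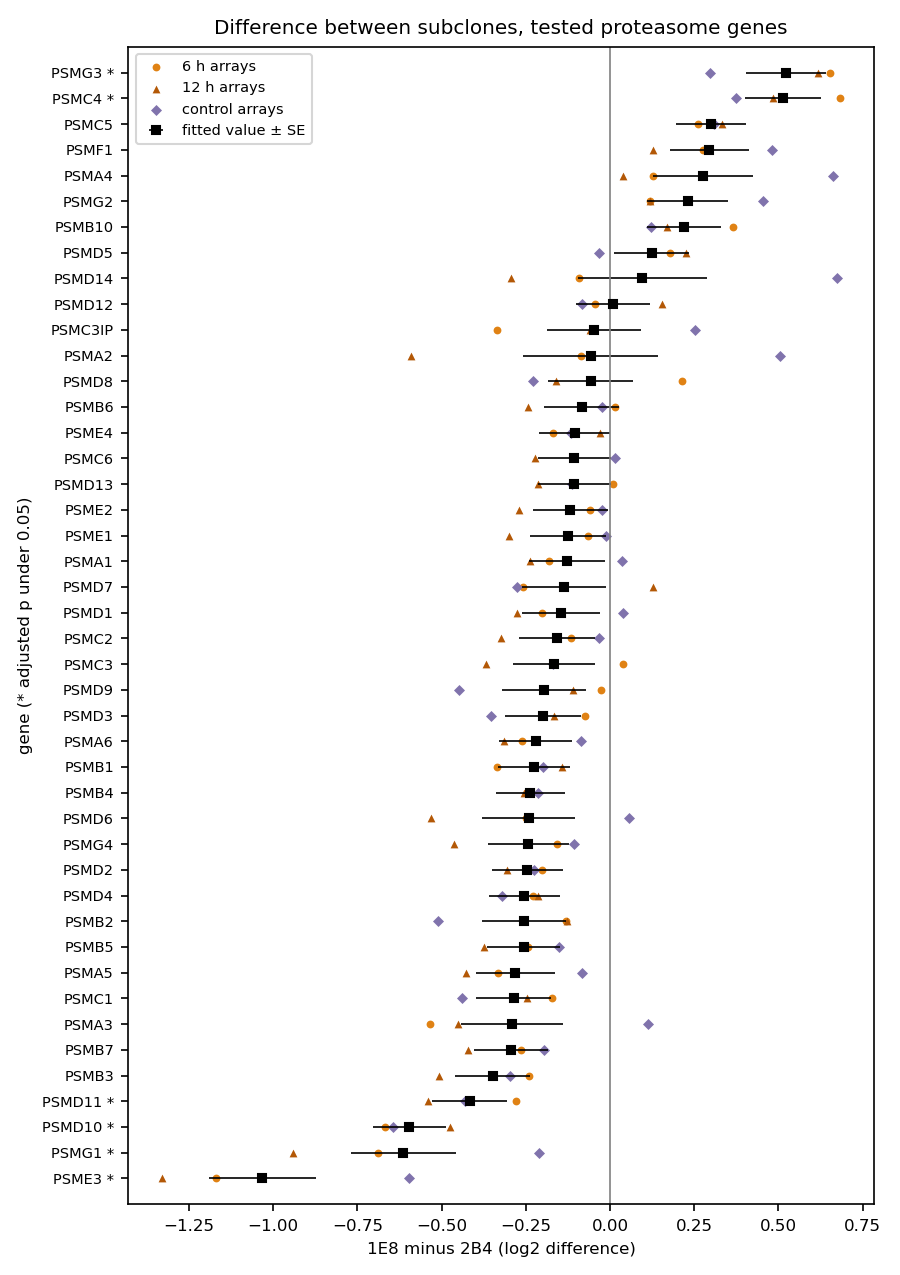
Difference between subclones, 1E8 minus 2B4, on the log2(intensity + 16) scale for each tested gene, sorted by that difference. Squares are fitted values with their standard error, coloured symbols the array pairs of the 3 conditions, and an asterisk marks adjusted p under 0.05. Most squares lie below 0, PSME3 lowest at -1.03, with PSMC4 and PSMG3 highest.

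Most of the other genes lay slightly lower in 1E8. The fitted difference was below 0 for 34 of the 44 genes and above 0 for 10 (22.7%, against 51.9% of all tested entries), with a median of -0.15, against 0.01 for all tested entries. All 3 arrays of 1E8 were below all 3 of 2B4 for 16 genes (36.4%, against 17.3%), and above them for 7 (15.9%, against 18.9%). 1E8 was below 2B4 in each of the 3 conditions for 22 genes (50%, against 25.1%) and above it in each for 7 (15.9%, against 28.2%). Condition by condition, 1E8 was above 2B4 for 12 genes on the 6 h arrays (27.3%, against 48.7%), for 10 on the 12 h arrays (22.7%, against 48.2%) and for 15 on the control arrays (34.1%, against 56.4%). The genes lower in 1E8 were thus the majority with and without ATP. Among entries with a mean intensity of at least 500, the share below without overlap was 13 of 32 genes (40.6%), against 21% of 2753 entries. These counts are a description of the list and carry no test. With the arrays scaled to one median or quantile normalized, 34 of 44 were likewise below 0.

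Of all 11097 tested entries 5342 were below 0, which is the share to set beside each role. The roles hold few genes each and were not tested as groups. By role, the beta ring was lower in 1E8 for 7 of its 8 tested genes, with a median of -0.25. PSMB5, which carries the chymotrypsin-like site of the core, had 3018, 2802 and 2815 in 1E8 at 6 h, at 12 h and in the control, against 3575, 3638 and 3132 in 2B4. PSMB7, with the trypsin-like site, had 3332, 3176 and 3207 in 1E8, against 4003, 4262 and 3679 in 2B4. In both genes all 1E8 arrays were the lower ones, with differences of -0.26 ± 0.11 and -0.29 ± 0.11 that did not pass the test (adjusted p of 0.153 and 0.114). PSMB6, with the caspase-like site, overlapped, with 4208, 3731 and 3965 in 1E8, against 4165, 4419.9 and 4033 in 2B4. PSMB10, which replaces PSMB7 in the immunoproteasome, was the exception of the ring, with 1439.8, 1387 and 1357 in 1E8, against 1115, 1231 and 1246 in 2B4, and a difference of 0.22 ± 0.11 (adjusted p = 0.220).

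The alpha ring had a median difference of -0.17, with 5 of 6 genes below 0, and the ATPases one of -0.13, with 4 of 6 below 0. PSMD1, PSMD2 and PSMD4, the scaffolds and a ubiquitin receptor of the base, were all below 0, with a median of -0.25, and the 8 lid genes had a median of -0.12. Without overlap, 6 of the 17 base and lid genes were lower in 1E8 (17.3% of all tested entries) and 2 higher (18.9%). The higher ones were PSMC4 and PSMC5. The lower ones were PSMD11, PSMD4, PSMD2, PSMD3 and the ATPases PSMC1, at -0.29 ± 0.11, and PSMC2, at -0.16 ± 0.11. PSMD2 had 1593, 1482 and 1502 in 1E8, against 1836, 1837 and 1759.7 in 2B4. PSMD3, a dim lid gene, had 74.2, 65.4 and 58.4 in 1E8, against 79.0, 75.3 and 79.1 in 2B4. In the alpha ring PSMA5 had 2308, 2224 and 2479 in 1E8, against 2908, 2999 and 2629 in 2B4, and PSMA4 was the one gene of the ring above 0, at 0.28 ± 0.15. Apart from PSMC4 and PSMD11, none of these passed the test.

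The 4 activator genes were all below 0, with a median of -0.12, but PSME1, PSME2 and PSME4 lay between -0.12 and -0.10, and PSME3 was the one that passed the test. PSME1 had 889, 924 and 946 in 1E8, against 930.2, 1140.3 and 954 in 2B4. PSME2, which forms one cap with PSME1, had 2259.8, 2260.1 and 2382 in 1E8, against 2354, 2729 and 2424 in 2B4. The subclones overlapped for both. PSMF1, a proteasome inhibitor in the test tube, was on the other side: it had 489.5, 429.6 and 495 in 1E8, against 401, 392 and 350.2 in 2B4, and a difference of 0.30 ± 0.12 that did not pass (adjusted p = 0.132).

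The second comparison asked how expression with ATP differed from control at each time, over both subclones. Where the subclones differed from control in opposite directions, the fit averaged them and counted the disagreement as error. At 6 h limma called 0 of the 44 genes, and 0% of all tested entries, and at an unadjusted p under 0.05 it counted 0 genes higher (3.22% of all entries) and 0 lower (6.58%). At 12 h it called 0 genes (0% of all entries). There 1 gene was higher at an unadjusted p under 0.05 (2.62% of all entries) and 0 lower (6.52%). For the mean of both times the calls were 0 genes and 0% of entries, and the unadjusted p was under 0.05 for 0 higher genes (3.15% of entries) and 0 lower ones (7.05%). The fitted difference was above 0 for 25 genes at 6 h (56.8%, against 42.6% of all entries), 27 at 12 h (61.4%, against 42.2%) and 28 for the mean (63.6%, against 41.9%). With the arrays scaled to one median these were 34 genes (77.3%, against 52.9% of all entries), 38 (86.4%, against 54.5%) and 37 (84.1%, against 54.3%). The median of the 44 genes was 0.03 at 6 h and 0.02 at 12 h, against -0.04 at each time for all tested entries, and the 12 h value turned to -0.04 without the 2B4 12 h array and to -0.02 without the 2B4 control array.

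The gene with an unadjusted p under 0.05 at 12 h was PSMB4, a structural beta subunit. It had 1713 at 6 h and 1932 at 12 h in 1E8, against 1586 in the control, and 2025 at 6 h and 2311 at 12 h in 2B4, against 1841 in the control. Its value was above the control on each of the 4 ATP arrays. The fitted difference at 12 h was 0.30 ± 0.13 (adjusted p = 0.539, limma).

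**Figure D3:**
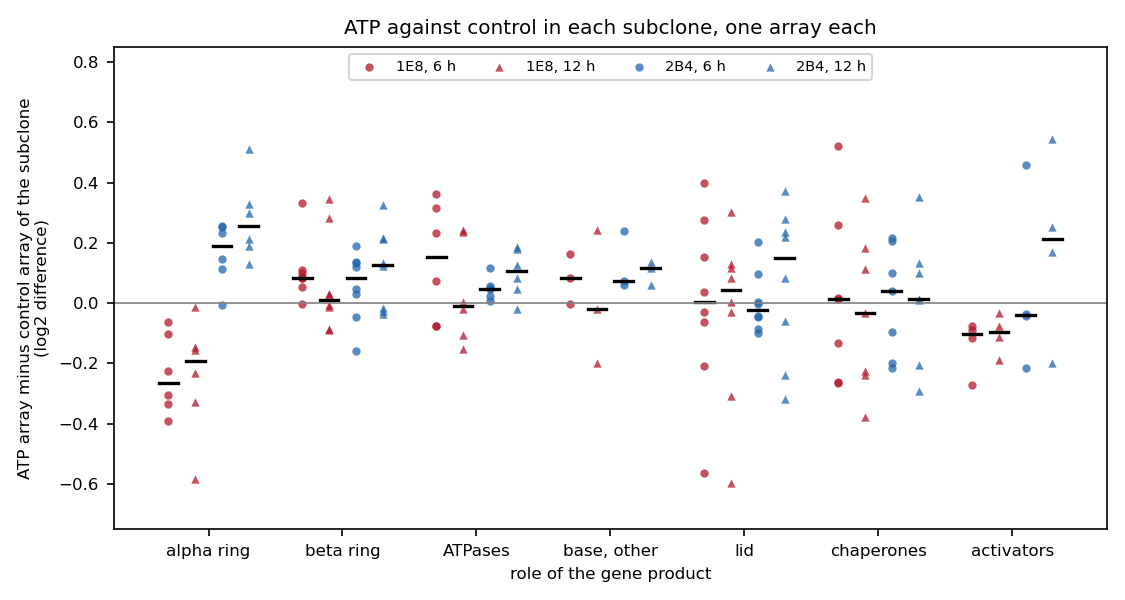
Difference of each ATP array from the control array of its subclone, on the log2(intensity + 16) scale, for the tested genes of each role. Circles are 6 h, triangles 12 h, red 1E8, blue 2B4 and black bars medians. The alpha ring lies at medians of -0.26 and -0.19 in 1E8 and of 0.19 and 0.26 in 2B4, while the beta ring medians are between 0.01 and 0.13 in all 4.

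Among the 42 genes that every array detected, the highest fitted differences at 6 h were those of PSMC4 (0.21 ± 0.14), PSMC1 (0.18 ± 0.14), both ATPases of the base, and the lid subunit PSMD8 (0.18 ± 0.16). PSMC1 had 3845 and 3654 with ATP for 6 h and 12 h in 1E8, against 3089 in the control, and 4332 and 4336 in 2B4, against 4196. The larger difference of PSMC1 was in 1E8. PSMD9, which was not above the limit on every array, had a higher value than these, at 0.31 ± 0.15. The lowest at 6 h were PSME4 (-0.24 ± 0.13), the nuclear activator that acts on acetylated histones, PSMG4 (-0.24 ± 0.15) and PSMD14 (-0.18 ± 0.23). PSME4 had 768 and 859 with ATP in 1E8, against 930.4 in the control, and 866 and 876 in 2B4, against 1009, so that it was below the control on each ATP array. PSMD8 had 551 and 515 with ATP in 1E8, against 414 in the control, and 473 and 577 in 2B4, against 488. Single arrays decided some signs: without the 1E8 6 h array PSMD8 was at -0.03, and without the 1E8 control array PSMD14 was at 0.25.

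At 12 h the highest of the 42 genes were PSMB4, PSMD8 (0.27 ± 0.16) and the ubiquitin receptor PSMD4 (0.19 ± 0.13), and the lowest PSMD5 (-0.16 ± 0.14), a chaperone of the base, PSME4 (-0.16 ± 0.13) and PSMD7 (-0.12 ± 0.15), the lid partner of PSMD14. PSMD4 had 897 and 948 with ATP for 6 h and 12 h in 1E8, against 799 in the control, and 1055 and 1102 in 2B4, against 1002, above the control on each ATP array. PSMD7 had 703 and 762 with ATP for 6 h and 12 h in 1E8, against 718 in the control, and 845 and 697 in 2B4, against 873. Its low value was that of the 2B4 12 h array, without which the difference was 0.08. For the mean of both times the highest and lowest of the 42 were PSMD8 at 0.22, PSMB4 at 0.21 and PSMC4 at 0.20, and PSME4 at -0.20, PSMD14 at -0.15 and PSMG4 at -0.14. PSMD14 turned to 0.29 there without the 1E8 control array and was at 0.00 without the 1E8 12 h array.

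PSMB4, PSMC1, PSMC4, PSMD4, PSMD9 and PSMD10 were above their control on all 4 ATP arrays, 6 of 44 (13.6%, against 10.2% of all tested entries). PSME4 alone was below it on all 4 (2.27%, against 17.9%). These counts use each control array for both times. The differences were also small in size: 1 gene, PSMD14, lay past 1.5-fold of its control on an ATP array of 1E8 (2.27%, against 11.8%), and 0 genes did in 2B4 (0%, against 8.39%). Among entries with a mean intensity of at least 500 these shares were 3.12% of the genes against 4.98% of entries in 1E8, and 0% against 1.82% in 2B4.

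Between 12 h and 6 h of ATP limma called 0 of the 44 genes and 0% of all entries. At an unadjusted p under 0.05 it counted 0 higher at 12 h (3.32% of entries) and 0 lower (3.6%). The difference was above 0 for 23 genes (52.3%, against 50.6%). Of the 42 genes that every array detected, the highest were PSMG4 (0.19 ± 0.15), PSMD13, a lid subunit (0.19 ± 0.13), and PSMB4 (0.18 ± 0.13), and the lowest PSMD1 (-0.16 ± 0.14), PSMG3 (-0.13 ± 0.15) and PSMF1 (-0.11 ± 0.14). PSMD13 had 123 at 12 h and 115 at 6 h in 1E8, and 145 at 12 h and 114 at 6 h in 2B4. PSMD1 had 468 at 12 h and 539 at 6 h in 1E8, and 571 at 12 h and 623 at 6 h in 2B4. PSMF1 was at 0.02 without the 1E8 12 h array. No adjusted p among the 44 was below 0.876.

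The third comparison asked whether the ATP difference was the same in both subclones, as the mean of both times against control in 1E8 minus that in 2B4. It called 0 of the 44 genes (0.00901% of all entries, 1 entry), with 1 residual degree of freedom. This model fits each control array exactly, so its error comes from the ATP arrays alone and holds no spread of the controls. At an unadjusted p under 0.05, 6 genes were lower (13.6%, against 13.3% of all entries) and 0 higher (5.52% of all entries). The 6 were PSMD14, PSMA2, PSME3, PSMA3, PSMG1 and PSMA4. Each of them was lower with ATP at both times in 1E8, and higher with ATP at both times in 2B4, than the subclone's own control. The same order was found for 18.3% of all tested entries.

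PSMD14, the lid's deubiquitinase, had the lowest value. It measured 996 at 6 h and 973 at 12 h in 1E8, against 1479 in the control, and 1063 at 6 h and 1196 at 12 h in 2B4, against 921 in the control. The 1E8 control array was above all others, and the 2B4 control array below all others. The difference between the subclones' ATP effects was -0.87 ± 0.19 (adjusted p = 0.160). The effect cannot be fitted without either control array, and the 1E8 control array is also the one with the narrowest background. Its part in the result was not tested.

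The alpha subunit PSMA2 had 121 and 99.5 with ATP for 6 h and 12 h in 1E8, against 157 in the control, and 129 and 158 in 2B4, against 106. PSMA3, an alpha subunit whose tail binds other proteins, had 718 and 805 in 1E8, against 948, and 1049 and 1106 in 2B4, against 876. PSMA4 had 1347 and 1324 in 1E8, against 1666, and 1232 and 1289.6 in 2B4, against 1046. In all 3 genes both ATP arrays were below the single control array in 1E8 and above it in 2B4. This restates the order already given for the 6 genes. The differences between the effects were -0.84 ± 0.25, -0.60 ± 0.18 and -0.58 ± 0.18 for PSMA2, PSMA3 and PSMA4, with adjusted p of 0.194, 0.194 and 0.198.

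Of the 6 tested genes of the alpha ring, 5 had this order, against 18.3% of all tested entries. All 6 tested alpha genes were lower with ATP than in the control at both times in 1E8, as were 49.7% of all tested entries, with medians of -0.26 at 6 h and -0.19 at 12 h. In 2B4, 5 of 6 were higher at 6 h and 6 of 6 at 12 h, against 5547 and 5596 of all 11097 tested entries. The alpha medians there were 0.19 and 0.26. At both times 5 of 6 were higher, against 36% of all tested entries. PSMA1 was the exception at 6 h, with 931 against 935 in the 2B4 control. The smallest differences in 1E8 were those of PSMA6, with 2740.2 and 2833 in 1E8 with ATP, against 2861 in the control. With the arrays scaled to one median, 5 of 6 alpha genes were lower on both 1E8 ATP arrays (34.7% of all entries), with medians of -0.17 and -0.08. On both 2B4 ATP arrays 5 of 6 were higher (36.7% of all entries). Both held together for 4 of 6 under that scaling, and for 4 of 6 with quantile normalization. Unscaled, the median of all tested entries in 1E8 was -0.07 at 6 h and -0.08 at 12 h. In 2B4 it was 0.00 at both times.

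In the beta ring 0 of 8 genes were lower on both 1E8 ATP arrays and higher on both 2B4 arrays, against 18.3% of all tested entries. With only 8 genes, a count of 0 is near that share. The ring's median difference between the effects was -0.06, against -0.44 for the alpha ring and -0.07 for all tested entries. Among the 42 genes above the limit on every array, PSMB2 had the highest value, with 1741 and 1756 in 1E8 with ATP, against 1379 in the control, and 1906 and 1920.2 in 2B4, against 1969.6. Its difference between the effects was 0.38 ± 0.18 (adjusted p = 0.306). Of these 42 genes PSMG3 and PSMD8 followed, at 0.34 ± 0.18 and 0.25 ± 0.22, and the dim PSMD9 was at 0.38 ± 0.18. No test compared the rings with each other.

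PSMG1, the chaperone of the alpha ring, and PSME3 were the remaining genes of the 6. PSMG1 had 729 and 671 with ATP in 1E8, against 877 in the control, and 1185 and 1302 in 2B4, against 1018, a difference between the effects of -0.60 ± 0.20 (adjusted p = 0.210). PSMG2, its partner, had 682 and 633 in 1E8, against 749, and 627 and 582 in 2B4, against 542. Both partners were thus on the same side in each subclone, although the fitted subclone differences of PSMG1 and PSMG2 had opposite signs. In PSME3 the ATP arrays lay further from the control in 2B4, where the ATP arrays stood at 350.2 and 373, against 251 in the control, while 1E8 had 147 and 139, against 160.3. The difference between the effects was -0.65 ± 0.18 (adjusted p = 0.188).

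**Figure D4:**
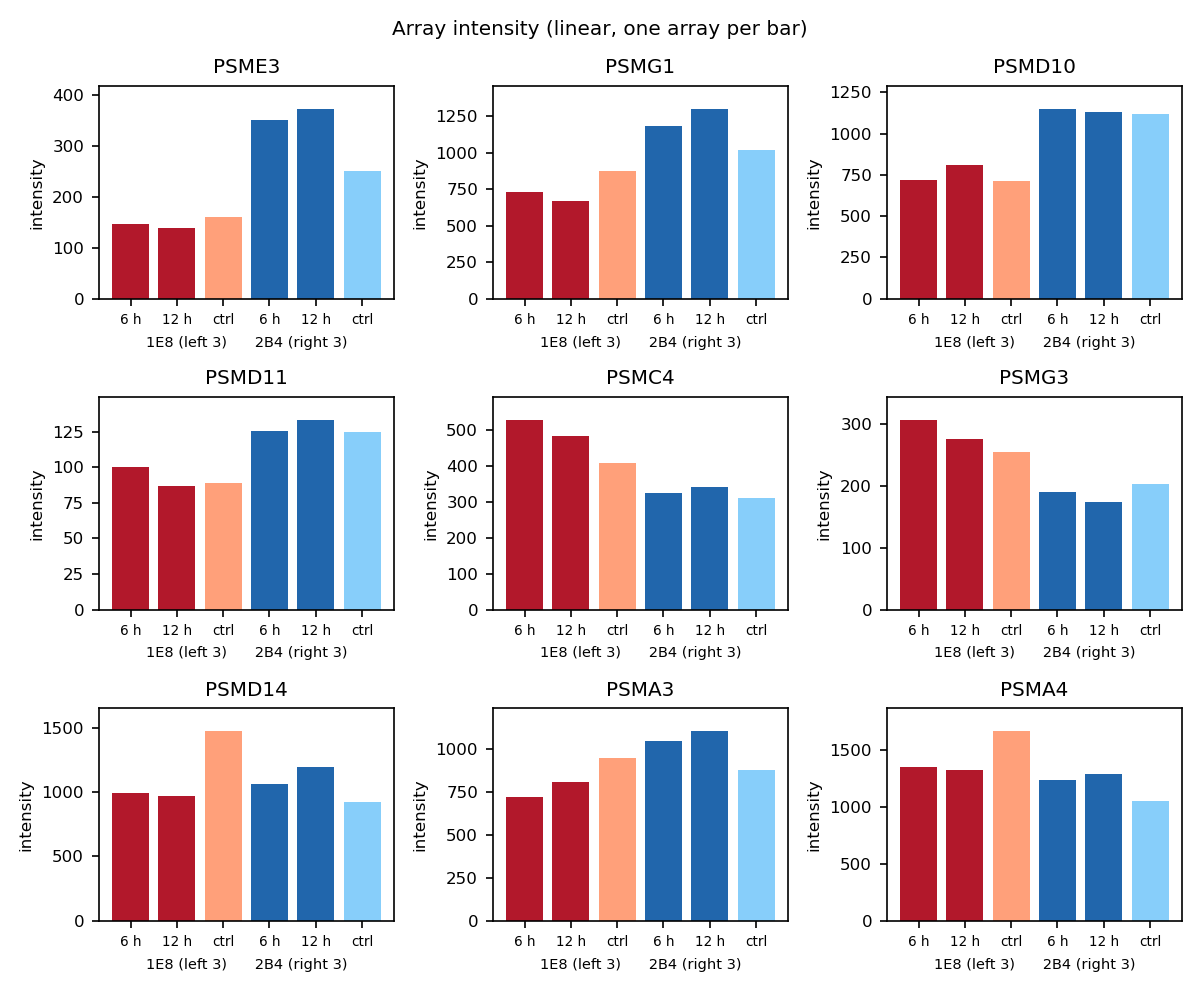
Intensity on each array, on a linear axis from 0, of 9 genes named in the text, with light bars for the control arrays. For PSMD14, PSMA3 and PSMA4 the control bar is the highest of 1E8 and the lowest of 2B4. PSME3 stands between 139 and 160.3 in 1E8 and between 251 and 373 in 2B4.

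Over all 44 genes, 15 were lower on both 1E8 ATP arrays and higher on both 2B4 ATP arrays (34.1%, against 18.3% of all tested entries), and 4 showed the opposite order (9.09%, against 10.2%). With the arrays scaled to one median the 15 became 9, against 13% of all entries. In 2B4, 28 genes were higher on both ATP arrays (63.6%, against 36% of all entries) and 8 lower (18.2%, against 35.4%). In 1E8, 20 were lower on both (45.5%, against 49.7%) and 13 higher (29.5%, against 28.7%), and the 20 became 11 with the arrays scaled to one median (34.7% of all entries). The difference between effects was above 0 for 17 genes (38.6%, against 42%). Among entries with a mean intensity of at least 500, 21 of 32 genes were higher on both 2B4 ATP arrays (65.6%, against 42.4% of 2753 entries). In that set 11 were lower on both 1E8 ATP arrays and higher on both 2B4 ATP arrays (34.4%, against 22.5%). The opposite order held there for 2 (6.25%, against 13.3%). These counts again use each control array for both times and carry no test.

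All 6 genes with an unadjusted p under 0.05 passed the adjusted threshold in 1 alternative setting. With limma's mean-variance trend, which lets the error depend on brightness, their adjusted p lay between 0.00397 for PSMD14 and 0.0442 for PSME3. That setting called 741 of all 11097 tested entries. The 6 genes were picked by their p in this same comparison, so these calls are no separate result. Over the 8 alternative settings the adjusted p of PSMD14 ranged from 0.00397 to 0.364, with 3 settings under 0.05, and those of the other 5 genes from 0.0260 to 0.577, with 1 setting each.

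The promoters of the 6 genes with an unadjusted limma p under 0.05 in the third comparison are printed. The genes were picked by that p from these data, so their common ATP order is no separate result. In all, 15 of the 44 genes had that order (34.1%, against 18.3% of all tested entries). The windows are the 250 bases before the annotated start in RefSeq's GRCh38.p14, read on the gene's strand. They lie at chr7:42932175-42932424 (minus strand) for PSMA2, chr14:58244593-58244842 (plus) for PSMA3, chr15:78540155-78540404 (plus) for PSMA4, chr2:161308175-161308424 (plus) for PSMD14, chr17:42833147-42833396 (plus) for PSME3 and chr21:39183452-39183701 (minus) for PSMG1. Capitals mark matches, on either strand, to CCAAT, the box bound by NF-Y, or to TGACNNNGC, the core of the antioxidant response element bound by NFE2L1 and NFE2L2.
PSMA2: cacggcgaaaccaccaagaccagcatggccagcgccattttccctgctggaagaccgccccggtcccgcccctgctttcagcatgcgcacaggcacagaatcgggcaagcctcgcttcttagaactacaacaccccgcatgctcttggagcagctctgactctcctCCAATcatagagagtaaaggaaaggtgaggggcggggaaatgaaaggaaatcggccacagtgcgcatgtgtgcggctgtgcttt
PSMA3: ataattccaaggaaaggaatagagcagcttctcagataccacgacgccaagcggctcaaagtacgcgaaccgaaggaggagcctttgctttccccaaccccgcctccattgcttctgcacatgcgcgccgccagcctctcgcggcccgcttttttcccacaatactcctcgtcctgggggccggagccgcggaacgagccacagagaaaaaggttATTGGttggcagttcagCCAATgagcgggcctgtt
PSMA4: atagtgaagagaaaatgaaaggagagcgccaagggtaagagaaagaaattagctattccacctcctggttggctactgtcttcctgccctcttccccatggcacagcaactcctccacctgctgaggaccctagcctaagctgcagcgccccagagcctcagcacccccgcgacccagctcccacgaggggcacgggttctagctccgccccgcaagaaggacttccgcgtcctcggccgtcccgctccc
PSMD14: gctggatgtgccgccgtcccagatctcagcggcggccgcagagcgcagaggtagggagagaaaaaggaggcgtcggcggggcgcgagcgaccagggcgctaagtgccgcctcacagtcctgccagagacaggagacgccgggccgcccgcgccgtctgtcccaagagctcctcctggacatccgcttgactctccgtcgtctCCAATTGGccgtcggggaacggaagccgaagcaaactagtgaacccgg
PSME3: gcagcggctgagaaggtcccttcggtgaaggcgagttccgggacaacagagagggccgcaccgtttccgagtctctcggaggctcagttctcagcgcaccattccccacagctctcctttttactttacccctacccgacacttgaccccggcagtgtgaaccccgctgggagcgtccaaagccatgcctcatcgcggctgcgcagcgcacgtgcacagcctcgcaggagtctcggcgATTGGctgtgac
PSMG1: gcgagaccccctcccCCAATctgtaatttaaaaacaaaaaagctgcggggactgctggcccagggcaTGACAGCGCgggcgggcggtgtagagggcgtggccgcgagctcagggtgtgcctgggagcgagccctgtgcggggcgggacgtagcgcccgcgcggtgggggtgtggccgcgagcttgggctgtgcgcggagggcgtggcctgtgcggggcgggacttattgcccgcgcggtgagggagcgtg
CCAAT stood once in PSMA2, PSME3 and PSMG1, on both strands in PSMA3 and, as overlapping matches of both strands, in PSMD14. PSMG1 held the one TGACNNNGC match of the set, and PSMA4 held neither motif. Of the 47 genes, 41 had a window in the table. TGACNNNGC stood in 10 of the 41 (24.39%), against 10.91% of 35116 promoters, and CCAAT in 18 (43.9%), against 32.01%. The 35116 are all windows given, whether or not the gene was tested here. The 41 hold a single window per gene and include PSMC3IP and the undetected PSMA8 and PSMB11. The sets are thus unlike, and the shares carry no test. A match describes the letters of the window and is not evidence of binding.

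Other genes of the ubiquitin-proteasome pathway were taken from a list of 32 genes, of which 29 were tested. DDI2, UFD1L and FAF1 were below the limit on every array. For ATP at 6 h, at 12 h and for their mean, limma called 0 of the 29, and 0% of all tested entries. For the mean, 1 of the 29 was higher at an unadjusted p under 0.05, NFE2L1 (3.45%, against 3.15% of all entries). RAD23B was the 1 lower (3.45%, against 7.05%). NFE2L1, the factor that raises transcription of proteasome genes when the proteasome is impaired, had 380.1 and 340.2 with ATP for 6 h and 12 h in 1E8, against 275 in the control, and 369 and 362 in 2B4, against 260.0. All 4 ATP arrays were above both controls, with a mean difference of 0.42 ± 0.11 that did not pass (adjusted p = 0.332, limma). RAD23B, which carries ubiquitinated proteins to the proteasome, was below its control on each ATP array, with 99.0 and 99.6 in 1E8, against 151, and 139 and 118 in 2B4, against 162. Its mean difference was -0.42 ± 0.12 (adjusted p = 0.342).

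Between the subclones 3 of the 29 passed the test (10.3%, against 17.1% of all tested entries). UBQLN2, a shuttle of ubiquitinated proteins, had 173, 141 and 198 in 1E8 at 6 h, at 12 h and in the control, against 404, 415 and 396 in 2B4, a difference of -1.18 ± 0.13 (adjusted p = 0.00265). UBA1, the enzyme that activates ubiquitin, had 1476, 1333 and 1085 in 1E8, against 2168, 2033 and 2312 in 2B4, a difference of -0.74 ± 0.14 (adjusted p = 0.0151). FAF2 was higher in 1E8, at 0.41 ± 0.11 (adjusted p = 0.0452). At an unadjusted p under 0.05, 2 of the 29 were higher (6.9%, against 17.9% of all entries) and 5 lower (17.2%, against 15.4%). The others were ZFAND2A at 0.37, UBA6 at -0.38, VCP, the segregase that unfolds ubiquitinated proteins, at -0.26, and ADRM1, a ubiquitin receptor of the base, at -0.26. FAF2 was also the one gene of the 29 with an unadjusted p under 0.05 between 12 h and 6 h, at -0.37 ± 0.13 (adjusted p = 0.661). The median subclone difference of the 29 was -0.02, against 0.01 for all tested entries.

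For the difference between the subclones' ATP effects 0 of the 29 passed, with the unadjusted p under 0.05 for some: 2 were higher (6.9%, against 5.52% of all entries) and 6 lower (20.7%, against 13.3%). POMP, which assembles the core's rings and leaves it as its first substrate, was among the lower ones, with 680.4 and 671 in 1E8 with ATP, against 877 in the control, and 950.1 and 991 in 2B4, against 780.3. Its difference between the effects was -0.68 ± 0.18 (adjusted p = 0.175). The regulatory particle's deubiquitinases USP14 and UCHL5, at -0.46 and -0.54, the associated thioredoxin TXNL1 at -0.53, NFE2L2 at -0.68 and UBQLN4 at -0.67 were the others. UBA1 was among the higher ones, at 0.50. The dimmer entry of that gene, UBE1, was left out of the fits. It had 457 and 437 in 1E8 with ATP, against 376 in the control, and 804 and 812 in 2B4, against 743. In 2B4 the ATP arrays were thus above the control for the UBE1 entry and below it for the UBA1 entry.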

How the data were processed

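The deposited intensities of the 6 arrays are linear values on a common scale, 1 per gene symbol, and the authors' software for them is not given in the sources used here. For the total RNA the labels' protocols name Trizol and RNeasy, and Illumina's TotalPrep kit for the biotinylated cRNA. A table of 6 further columns, not normalized, was not used, since their names match no sample label. The design had been written for such raw signals with detection p-values, and the deposited intensities took their place.

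Negative values were set to 0 and log2(intensity + 16) was analysed, which understates the change of dim genes. An entry was above the limit where it exceeded its array's background peak by 3 widths of the background. Entries above it on at least 1 array were tested. Left out were 3270 entries named by a sequence cluster and 133 with a brighter entry of the same gene (UBE1 gave way to UBA1). limma 3.58.1 in R 4.3.3 fitted subclone and condition (2 residual degrees of freedom), and a second model added a term for a different ATP effect in 1E8 (1 residual degree of freedom). Benjamini-Hochberg adjustment ran over all tested entries. Nothing in the labels says the 6 samples came from separate cultures, so a p-value reflects the spread of these 6 samples alone. That spread may be technical. In the first model it also holds any difference between conditions that is not the same in both subclones. In the second model it comes from the ATP arrays alone, since the control arrays are fitted exactly. The number of arrays limits precision. The fits were tested on simulated data. Alternatives were another offset, scaling, floor or filter, limma's mean-variance trend and leaving out each array.

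The members, lists and tests were chosen with earlier results of these data known. Named in full are the catalytic subunits, activators, inhibitor and chaperones, and for each contrast the 3 highest and 3 lowest members among those that every array detected. PSMD11 and the genes with an unadjusted p under 0.05 in the third comparison were added after their values were seen. Promoter sequences are RefSeq's for GRCh38.p14, matched by symbol. Some results are not reported here.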

Additional observations from a re-analysis of the deposited data

Results flagged for a closer look

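For 19 of the 44 tested genes both ATP arrays of one subclone lay on one side of its control and both ATP arrays of the other subclone on the opposite side (43.2%, against 28.6% of all tested entries). At a mean intensity of at least 500, 11 of 32 genes were lower in 1E8 and higher in 2B4. These were 34.4%, against 22.5% of 2753 entries. The opposite order held there for 2 genes (6.25%, against 13.3%). With the arrays scaled to one median, 9 in place of 15 genes were lower in 1E8 and higher in 2B4. The difference between the subclones' ATP effects, 1E8 minus 2B4, was tested with limma and passed for none of the 19 genes (adjusted p between 0.160 and 0.706). At an unadjusted p under 0.05 there were 6 lower (13.6%, against 13.3% of all entries) and 0 higher (5.52% of all entries). Lower with ATP in 1E8 and higher in 2B4 were the alpha subunits PSMA2 (-0.84), PSMA3 (-0.60), PSMA4 (-0.58), PSMA5 (-0.30) and PSMA6 (-0.20), the ATPases PSMC2 (-0.19) and PSMC6 (-0.18), the base and lid subunits PSMD14 (-0.87), PSMD6 (-0.45) and PSMD1 (-0.28), the core chaperones PSMG1 (-0.60) and PSMG2 (-0.34), the activator PSME3 (-0.65), the inhibitor PSMF1 (-0.28) and the recombination cofactor PSMC3IP (-0.45). The opposite order was found for PSMB2 (0.38), PSMG3 (0.34), PSMD3 (0.23) and PSMB10 (0.15). PSMC3IP and PSMD3 are dim, with intensities between 46.1 and 79.1. Each sign rests on 1 control array per subclone.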

How the results depend on the processing

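The median of the 44 genes for 1E8 minus 2B4 stayed below 0 in every alternative (-0.195 to -0.0888 with 1 array left out). Over the scaling, offset, floor and filter alternatives, 16 to 19 genes were lower on all 1E8 arrays than on every 2B4 array, against 8.94% to 18.9% of all entries. The ATP medians were 0.0806 at 6 h, 0.0809 at 12 h and 0.0864 for the mean with arrays scaled to one median, and lay on either side of 0 with 1 array left out at 12 h (-0.0369 to 0.124), for the mean (-0.00573 to 0.0899) and between the times (-0.0526 to 0.0780). The calls depended more on the setting. For 1E8 minus 2B4 the 1900 calls became 621 with values floored at 50, 0 with no filter on dim entries (4567 at an unadjusted p under 0.05), and 916 to 2564 with 1 array left out. The difference between the subclones' ATP effects, 1 call, gave 364 calls with an offset of 50, 8 with arrays scaled to one median, 0 with quantile normalization, 0 with the floor, 0 with no filter (1904, 2191 and 4260 at an unadjusted p under 0.05), 283 for entries above the limit on all 6 arrays, 41 for those above it on at least 3, and 741 with the mean-variance trend. Its median over the 44 genes was 0.0161 with arrays scaled to one median and -0.215 to -0.0483 with 1 array left out, and the 15 genes of opposite order became 9 under that scaling. The trend also called 1 entry at 6 h. Leaving out 1 array leaves its partner in the other subclone fitted exactly, so calls gained there carry no weight. They were 5 to 49 at 6 h, 0 to 24 at 12 h, 0 to 57 for the mean of both times and 0 to 6 between the times. Some signs turned with 1 array left out: PSMD8 at 6 h (-0.0251 to 0.382), PSMD14 at 6 h (-0.61 to 0.25) and for the mean (-0.58 to 0.29, and 0.00 without the 1E8 12 h array), PSMD7 at 12 h (-0.314 to 0.0798) and PSMF1 between the times (-0.233 to 0.0183). The causes were not tested. No paired analysis was possible because every label carries the same replicate number, beyond the fit's own terms, which set 1E8 and 2B4 against each other within each condition. With 1 array a group, array quality and condition cannot be told apart.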
